A study of Mus musculus with 2 samples.

Results

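The cells described here are a cluster of cultured white adipose precursors, early preadipocytes that the authors numbered wAPC 3. Its members were the cells of the white library that carry this name among the first 1999 cells of the authors' table of barcodes and clusters. Of 1999 labelled white precursor cells, 270 were wAPC 3 (13.5%, 95% interval 12.0 to 15.1%), and the other 1729 fell into 6 clusters. Labels of these 1999 cells were used here, out of 4407 white cells that pass the study's filter, so wAPC 3 cells among the rest were not part of the counts. The 6 other clusters were wAPC 1 with 462 cells, wAPC 2 with 260, wAPC 4 with 62, the committed precursors wCAPs with 674, the fibroadipogenic-like wFAPLs with 256, and differentiating wFAPLs with 15.

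The stromal vascular fraction of subcutaneous white and of interscapular brown fat came from newborn C57/BL6J mice (P0 in the labels, P1 in the study's methods), a pool of pups of both sexes. The cells carried no engineered allele and received no drug. They were grown on plastic to confluency, which took 4 days, lifted with trypsin and captured with a 3′ droplet kit. There was 1 library per depot, so no test was possible, and every interval below is a 95% interval that covers counting error only. The white library held 5261 captured cells with a median of 26239 UMIs (506 to 107653), a UMI being a tag that marks 1 captured RNA molecule. The brown library held 7009 cells with a median of 26411 UMIs (504 to 120708). The libraries shared 9 cell barcodes, of which 0 were in wAPC 3.

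Proliferating cells copy their DNA in S phase and then pass through G2 into mitosis. In G2 they accumulate the cyclin B proteins that activate the kinase Cdk1, kinesins and microtubule-binding proteins that build the spindle, and kinetochore proteins that tie chromosomes to it. At the exit from mitosis the anaphase-promoting complex, a ubiquitin ligase, marks many of these proteins for destruction, and their transcripts fall to low levels in G1. Fat precursors divide in culture before they stop and mature.

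Many G2/M genes are switched on through 2 promoter elements, the cell cycle homology region and the CCAAT box. The 4 promoters below are shown because 2 belong to genes higher in wAPC 3 (Cdca3 and Ccnb2) and 2 to genes lower in its G2/M cells (Top2a and Fbxo5). Each covers 250 bases before to 50 bases after the start of the RefSeq transcript in GRCm38.p6, on the strand of the gene. Capitals mark TTTGAA or TTCGAA, the letters searched for the homology region, and CCAAT, each on either strand.
Cdca3, chr6:124829926-124830225, plus strand: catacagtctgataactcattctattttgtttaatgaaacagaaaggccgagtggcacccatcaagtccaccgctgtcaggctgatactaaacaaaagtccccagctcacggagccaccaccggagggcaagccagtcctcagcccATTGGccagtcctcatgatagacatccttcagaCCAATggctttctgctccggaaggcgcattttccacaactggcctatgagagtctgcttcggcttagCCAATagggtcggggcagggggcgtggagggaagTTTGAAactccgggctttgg
Ccnb2, chr9:70421505-70421804, minus strand: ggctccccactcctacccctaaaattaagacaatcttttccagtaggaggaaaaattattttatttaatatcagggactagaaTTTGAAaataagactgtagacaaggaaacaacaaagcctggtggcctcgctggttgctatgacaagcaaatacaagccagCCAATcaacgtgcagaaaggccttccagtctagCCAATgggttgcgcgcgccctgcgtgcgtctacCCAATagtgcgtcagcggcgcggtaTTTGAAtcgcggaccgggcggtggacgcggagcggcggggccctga
Top2a, chr11:99024140-99024439, minus strand: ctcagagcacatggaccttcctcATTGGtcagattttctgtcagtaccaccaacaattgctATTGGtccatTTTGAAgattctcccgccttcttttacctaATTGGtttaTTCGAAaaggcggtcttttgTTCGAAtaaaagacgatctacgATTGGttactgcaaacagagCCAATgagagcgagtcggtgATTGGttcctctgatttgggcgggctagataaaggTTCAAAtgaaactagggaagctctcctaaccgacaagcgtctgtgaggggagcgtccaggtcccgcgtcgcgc
Fbxo5, chr10:5805416-5805715, minus strand: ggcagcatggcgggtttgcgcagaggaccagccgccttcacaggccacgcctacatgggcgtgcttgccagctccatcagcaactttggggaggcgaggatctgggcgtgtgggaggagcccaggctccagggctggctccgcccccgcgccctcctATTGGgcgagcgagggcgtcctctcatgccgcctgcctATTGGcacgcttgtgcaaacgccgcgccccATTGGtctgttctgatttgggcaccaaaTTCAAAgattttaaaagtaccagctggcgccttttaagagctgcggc
The Cdca3 window held 1 homology match and 3 CCAAT matches, and the Fbxo5 window had the same numbers. Ccnb2 had 2 and 3, and Top2a had 4 and 6. TTCGAA reads the same on both strands and was counted once, and no marked letters overlap. The promoters of genes on both sides of the cluster's profile thus held these letters, and matches are a description of sequence only.

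Over all 32851 promoters in the RefSeq table, 19.2% held a homology match and 37.4% a CCAAT match. RefSeq promoters were found for 17 of the 23 mitotic genes that were at least 1.5-fold higher in wAPC 3, described further on. Of their 17 promoters, 13 held the homology letters (76.5%) and 15 held CCAAT (88.2%). The 26 mitotic genes that were at least 1.5-fold lower gave 25 promoters from 22 genes, of which 17 held the homology letters (68.0%) and 18 held CCAAT (72.0%). Over all tested mitotic genes the shares were 56.9% and 68.3% of 123 promoters. E2F letters (TTTGGCGC, TTTCGCGC or TTTCCCGC, either strand) were in 1.84% of all promoters, in 1 of the 17 and in 4 of the 25.

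The phase of each cell was scored from published S and G2/M gene lists. In wAPC 3, 139 cells scored as G2/M (51.5%, 45.3 to 57.6%), 104 as G1 (38.5%, 32.7 to 44.6%) and 27 as S (10.0%, 6.69 to 14.2%). Among the other labelled white cells, 294 scored as G2/M (17.0%, 15.3 to 18.9%), 1148 as G1 (66.4%) and 287 as S (16.6%). The 6 other clusters had between 13.3 and 19.5% of cells in G2/M. wAPC 3 therefore supplied 139 of the 433 G2/M cells among the labelled white cells (32.1%, 27.7 to 36.7%), but 8.31% of the 1252 G1 cells and 8.60% of the 314 S cells.

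The description of wAPC 3 as mostly G2/M did not hold under every scoring. Its G2/M share was 43.0% when a cell had to score above 0.1, and 43.7% when the cluster's own leading genes were taken out of the scoring list. It was 55.9% after every cell was thinned to 10000 UMIs and 56.6% with labels carried over to unlabelled cells. The higher of the S and G2/M scores lay within 0.05 of the limit in 47 of the 270 cells. Among wAPC 3 cells called G2/M, the median G2/M score was 0.277, against 0.549 in the other G2/M cells. A score under 0.1 was found in 23 of 139 such cells of wAPC 3 and in 15 of 294 elsewhere. The cluster is named here by its number because this share depended on the scoring.

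Cells of wAPC 3 also held fewer molecules. Their median was 23338.5 UMIs, with quartiles of 19633.75 and 27146, against 27891 (23367 and 34518) in the other cells. The medians of the other clusters ran from 25928 to 31090. The gap was widest in G2/M, at 22902 against 35257 UMIs, where other clusters reached 38494.5 (wAPC 1), 35157.5 (wCAPs), 34090 (wAPC 2) and 32992 (wFAPLs). The G2/M cells of wAPC 4, of which there were 10, stood nearest to wAPC 3 at 25158. In G1 the medians were 22113 and 25941, and in S they were 30069 and 32696. In the other clusters G2/M cells held more UMIs than G1 cells, except in wAPC 4, whose medians were close (25158 and 25777). In wAPC 3 the G2/M and G1 medians were close too. A count above 50000 UMIs was seen in 1 cell of wAPC 3 and in 41 others, and the mitochondrial share was 3.08% and 3.01%.

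**Figure D1:**
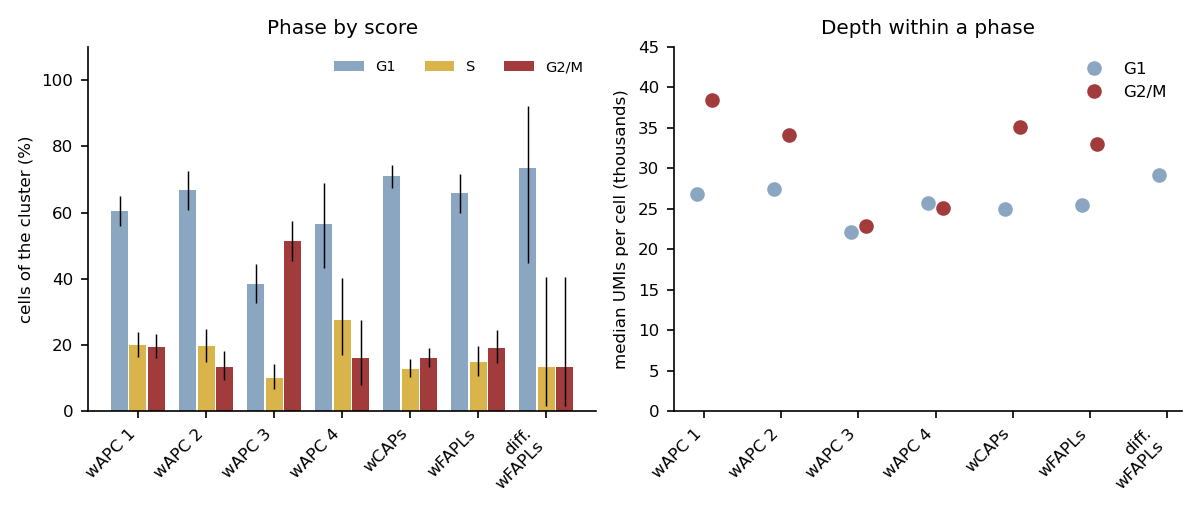
Share of cells in each cell cycle phase (left, %, lines are 95% Clopper-Pearson intervals) and median UMIs per cell in G1 and G2/M (right, groups of under 5 cells left out) for the 7 white clusters. wAPC 3 has the highest share of G2/M cells, 51.5% against 17.0% in the other cells together, and its G2/M cells have a median of 22902 UMIs against 35257.

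Cdca3 and Kif20a are the named markers of the cluster. Cdca3 is a trigger of mitotic entry that acts in the destruction of Wee1, and Kif20a is a kinesin of the central spindle needed for cytokinesis. Because the clusters were drawn from these same counts, the values below describe wAPC 3 and test nothing. Levels are counts per 1000000 UMIs (CPM) of all cells of a cluster summed. A 3′ kit counts molecules, so levels of one gene can be compared between clusters, and levels of different genes are not compared.

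Cdca3 stood at 101 CPM in wAPC 3 (93.6 to 109, 658 UMIs). Next came wFAPLs at 49.2 (44.2 to 54.6), then wAPC 1 at 40.2 (37.0 to 43.6), differentiating wFAPLs at 37.7 (22.4 to 59.6), wCAPs at 36.3, wAPC 2 at 29.8 and wAPC 4 at 26.5. Only wAPC 3 stood clear of all the rest, and the wide interval of the 15 differentiating wFAPLs overlapped those of its neighbours in this order. The other cells together had 37.9 CPM, a log2 ratio of 1.42 (1.29 to 1.54). After each cell was drawn down to 10000 UMIs, which all labelled cells reached, Cdca3 was seen in 57.4% of wAPC 3 cells (51.3 to 63.4%) and in 20.8% of the others (18.9 to 22.8%). The share in the others' G1 cells, which should hold little of it, was 8.54%.

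Kif20a gave the same picture. It reached 64.6 CPM in wAPC 3 (58.5 to 71.0), against 24.3 in wAPC 1, 23.8 in wFAPLs, 23.3 in wCAPs, 20.6 in wAPC 4, 18.9 in differentiating wFAPLs (8.63 to 35.8) and 16.5 in wAPC 2. The log2 ratio to the other cells was 1.52 (1.36 to 1.68). At 10000 UMIs it was seen in 40.7% of wAPC 3 cells (34.8 to 46.9%) and in 13.5% of the others (12.0 to 15.2%), with 3.4% in the others' G1 cells.

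The difference was small within G2/M cells and wider within G1 cells. Among G2/M cells alone, Cdca3 stood at 164 CPM in wAPC 3 and 139 in the others, a log2 ratio of 0.24 (0.09 to 0.38), and G2/M cells of wFAPLs had 168. For Kif20a the same comparison gave 110 and 92.5 CPM, a log2 ratio of 0.25. Among cells of 15000 to 30000 UMIs, the G2/M ratio was 0.20 for Cdca3 and turned to −0.06 for Kif20a, and the ratios over all phases were 2.22 and 2.31. Among G1 cells, where levels were low, the ratio was wider: 43.9 against 10.4 CPM for Cdca3 (2.08, 1.75 to 2.39) and 19.3 against 3.52 for Kif20a (2.46, 1.93 to 2.96). The G1 cells of wAPC 3 scored higher for G2/M as well, with a median of −0.144 against −0.204. Of these 104 cells, 28 lay within 0.05 below the limit.

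**Figure D2:**
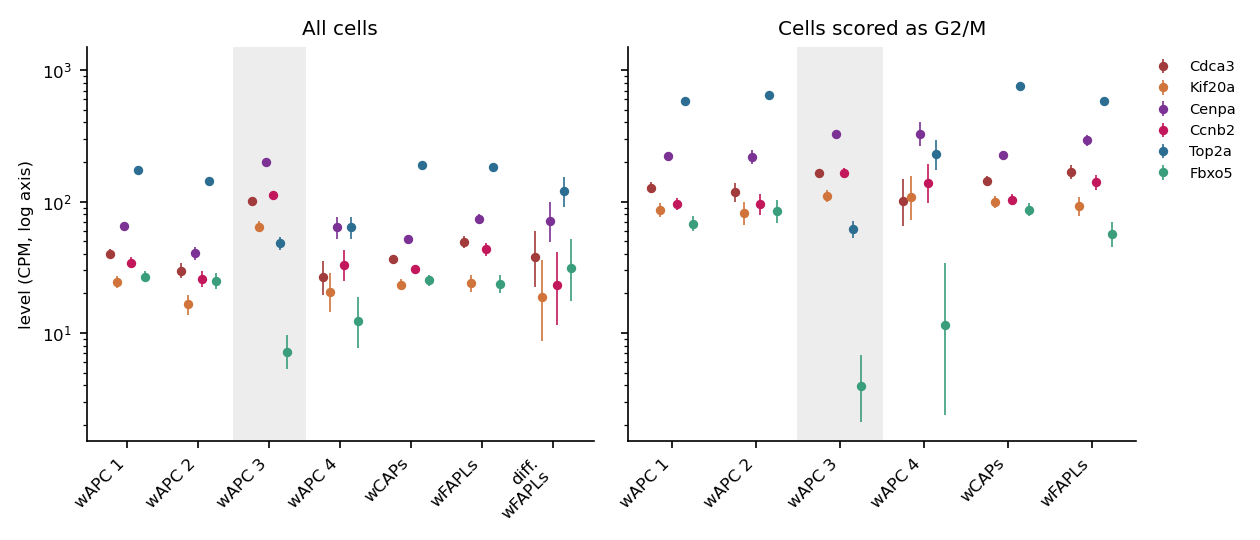
Level of 6 mitotic genes (CPM, log axis, bars are 95% Poisson intervals) in each white cluster, over all cells and over G2/M cells, with groups of under 5 cells left out. Cdca3, Kif20a, Cenpa and Ccnb2 peak in wAPC 3 over all cells, whereas Top2a and Fbxo5 are lowest there among G2/M cells.

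Among the genes highest in wAPC 3 over all phases, Cenpa stood first. Cenpa, the histone H3 variant that marks the centromere, stood at 199 against 57.8 CPM (log2 1.78). Ccnb2, a B-type cyclin, stood at 112 against 32.7 CPM (1.78). Cdkn3, a phosphatase of cyclin-dependent kinases, followed at 85.2 against 28.4 CPM (1.58), then Knstrn, a kinetochore and spindle adaptor, at 64.1 against 22.6 (1.50), and Cdc20, the mitotic activator of the anaphase-promoting complex, at 107 against 39.5 (1.44). Kif20a (1.52) and the histone genes Hist1h2bc and Hist1h1c (1.42 each) lay in the same range.

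Smaller ratios were found for Birc5, the survivin subunit of the chromosomal passenger complex (192 against 96.5 CPM, log2 0.99), Cks2, a Cdk1 subunit (0.97), and Cdc25c, the phosphatase that activates Cdk1 (0.93). Tacc3, Hmmr and Tpx2, which organise spindle microtubules, had log2 ratios of 0.92, 0.88 and 0.78. The checkpoint kinases Bub1b and Bub1 had 0.83 and 0.76, and Ccna2, the S and G2 cyclin, 0.81. Hmgb3, a chromatin protein, had 1.12, and the H2A variant H2afz stood at 1507 against 893 CPM (0.76).

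A set of 8 mitotic lists held 128 genes, of which 126 reached 5 CPM over all labelled white cells. Of these, 23 were at least 1.5-fold higher in wAPC 3, 26 were at least 1.5-fold lower and 77 lay between, with a median log2 ratio of 0.06. Across all 10410 genes at that level, 111 were higher by at least 1.5-fold (1.07%) and 689 lower (6.62%), with a median of −0.02. The split depended on the cells compared, with 36 higher and 20 lower after thinning, 39 and 19 with labels carried over, and 66 and 5 of 115 among cells of 15000 to 30000 UMIs. The shares of all genes called higher and lower were 2.05% and 8.01% after thinning, 1.13% and 6.11% with carried labels, and 2.4% and 6.85% in that range. The same 23 genes were higher under all 3 settings. The lowest were Ccnf, a cyclin-like F-box protein (2.15 against 13.3 CPM, log2 −2.62), Kpna2, a nuclear import receptor (−1.94), Top2a, the topoisomerase that disentangles sister chromatids (48.3 against 172 CPM, −1.83), and Aurkb, the Aurora kinase of the passenger complex (−1.83). For Aurkb the interval of wAPC 4 (4.13 CPM, 1.66 to 8.50) overlapped that of wAPC 3 (5.69, 4.0 to 7.84). Fbxo5, an inhibitor of the anaphase-promoting complex, had 7.23 against 25.03 CPM (−1.79), and Nusap1 and Prc1, both microtubule-binding proteins, had −1.76 and −1.54.

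By role, to be read beside the 1.07% of all genes higher and 6.62% lower, the mitotic entry list had 5 genes higher and 6 lower of 19 (median −0.24), the spindle list 5 and 6 of 27 (0.08), and the centromere and kinetochore list 5 and 5 of 31 (−0.02). Of 6 spindle checkpoint genes, 2 were higher and 0 lower (0.22). The anaphase-promoting complex list had 1 and 1 of 19 (0.08), and cytokinesis 3 and 2 of 9 (0.02). The 4 passenger complex genes split evenly, with Birc5 and Cdca8 (0.84) higher and Aurkb and Incenp (−1.24) lower. Chromosome condensation had 0 higher and 4 lower of 11 (0.06). Cdk1 itself stood at 45.4 against 89.0 CPM (−0.97), but at 39.4 against 36.4 (0.11) among cells of 15000 to 30000 UMIs, and the other B-type cyclin, Ccnb1, at 56.6 against 41.4 (0.45).

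G2/M cells were more frequent in wAPC 3, so the lists were also compared within phases. The G2/M score uses part of these genes, and its median was 0.277 in G2/M cells of wAPC 3 against 0.549 in the others. The values within G2/M are thus not independent of that score. Within G2/M cells, 1 of 128 mitotic genes, Ccnb2 (log2 0.63), was at least 1.5-fold higher in wAPC 3 and 81 were lower, with a median log2 ratio of −0.83. Of 10305 genes tested in these cells, 3.01% were higher and 9.59% lower, with a median of 0.02. By list, the medians were −1.15 for cytokinesis (0 higher and 6 lower), −1.01 for the spindle (0 and 20), −0.98 for mitotic entry (1 and 13), −0.88 for condensation (0 and 8), −0.87 for centromere and kinetochore (0 and 26) and −0.09 for the anaphase-promoting complex (0 and 3).

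Top2a was among the mitotic genes with a wide gap in G2/M. G2/M cells of wAPC 3 had 61.4 CPM (53.2 to 70.6, 201 UMIs), against 646 (631 to 662, 6605 UMIs) in the other G2/M cells, a log2 ratio of −3.40 (−3.61 to −3.19). The level was 583 in wAPC 1, 643 in wAPC 2, 764 in wCAPs and 580 in wFAPLs, whereas the 10 cells of wAPC 4 had 228. At 10000 UMIs, Top2a was seen in 38.1% of the wAPC 3 cells (30.03 to 46.7%) and in 89.8% of the others (85.8 to 93.0%), with 7.14% in the others' G1 cells.

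Several other single genes were lower as well in the G2/M cells of wAPC 3. Fbxo5 stood at 3.97 (2.12 to 6.80) against 73.9 CPM in G2/M cells (log2 −4.22), with 11.6 in wAPC 4, whose interval overlapped that of wAPC 3. Cdk1 stood at 53.2 against 308 CPM (−2.54), and Prc1 at 48.0 against 356 (−2.89). Fam83d, a spindle protein, had 3.06 against 54.7 CPM (−4.16), Ccnf 3.97 against 57.6 (−3.86), and Wee1, the kinase that restrains Cdk1, a log2 ratio of −3.79. Ube2c, the ubiquitin-conjugating enzyme of the anaphase-promoting complex, was less reduced at 137 against 532 (−1.96). The 10 G2/M cells of wAPC 4 lay close to wAPC 3 in Fam83d (3.87, 0.098 to 21.6) and Ube2c (143, 101 to 197). Mki67, the proliferation antigen, changed side between the views, with 138 against 107 CPM over all cells (0.37) and a log2 ratio of −0.76 in G2/M. Plk1, a kinase of mitotic entry, did likewise (0.27 and −0.98), as did Ccnb1 (0.45 and −0.89). In G2/M, Plk1 stood at 68.8 CPM in wAPC 3 and at 81.2 in wAPC 4 (50.3 to 124). Ccnb1 stood at 100 in wAPC 3 and 96.7 in wAPC 4 (62.6 to 143), so wAPC 4 lay close in both.

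Cenpa, in contrast, stayed level or higher. G2/M cells of wAPC 3 had 325 CPM (305 to 345) against 238 (229 to 248), a log2 ratio of 0.45 (0.34 to 0.55), and wAPC 4 had 329. The pair of Cenpa and Top2a, picked after their values were seen, was therefore followed cell by cell at 10000 UMIs. Of 139 G2/M cells of wAPC 3, 128 had Cenpa, and 50 of these also had Top2a (39.1%, 30.6 to 48.1%). Of 294 other G2/M cells, 226 had Cenpa and 200 of these had Top2a (88.5%, 83.6 to 92.3%). Cells with Cenpa and no Top2a numbered 78 of 139 in wAPC 3 and 26 of 294 in the others. Within the latter, they were 6 of the 10 G2/M cells of wAPC 4.

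Depth differed between these cells, so the comparison was repeated on cells of 15000 to 30000 UMIs, a range set after the depths were seen. It kept 109 G2/M cells of wAPC 3 (median 22583) and 81 others (24211). Top2a stood at 53.4 against 424 CPM (log2 −2.99), Fbxo5 had a log2 ratio of −4.20 and Cdk1 −2.03, and Cenpa had 0.22. Of 126 mitotic genes, 0 were at least 1.5-fold higher and 68 lower, against 5.0% and 9.86% of all genes in these cells. Over all phases this range also changed the phase mix, since G2/M cells made up 51.7% of the 211 wAPC 3 cells kept and 8.27% of the 980 others, against 17.0% of the others before. Of the 26 mitotic genes lower over all cells, 19 still reached 5 CPM there. Counted without that minimum, 6 of the 26 were still at least 1.5-fold lower, and 2 were at least 1.5-fold higher. Top2a had a log2 ratio of −0.62 and Fbxo5 −1.30.

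Within G1 cells the mitotic genes lay the other way. Of 56 tested, 16 were at least 1.5-fold higher in wAPC 3 and 4 lower (median log2 ratio 0.20), while over 10282 genes 1.7% were higher and 10.2% lower (median −0.07). Cenpa reached 89.0 against 12.7 CPM (2.81), Birc5 a log2 ratio of 2.66, Ccnb2 2.36 and Cdkn3 2.16. At 10000 UMIs, Cenpa was seen in 36 of the 104 G1 cells of wAPC 3 (34.6%) and in 101 of 1148 others (8.80%). Top2a did not share in this, with 11.1 (7.30 to 16.1) against 8.15 CPM (7.18 to 9.21).

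**Figure D3:**
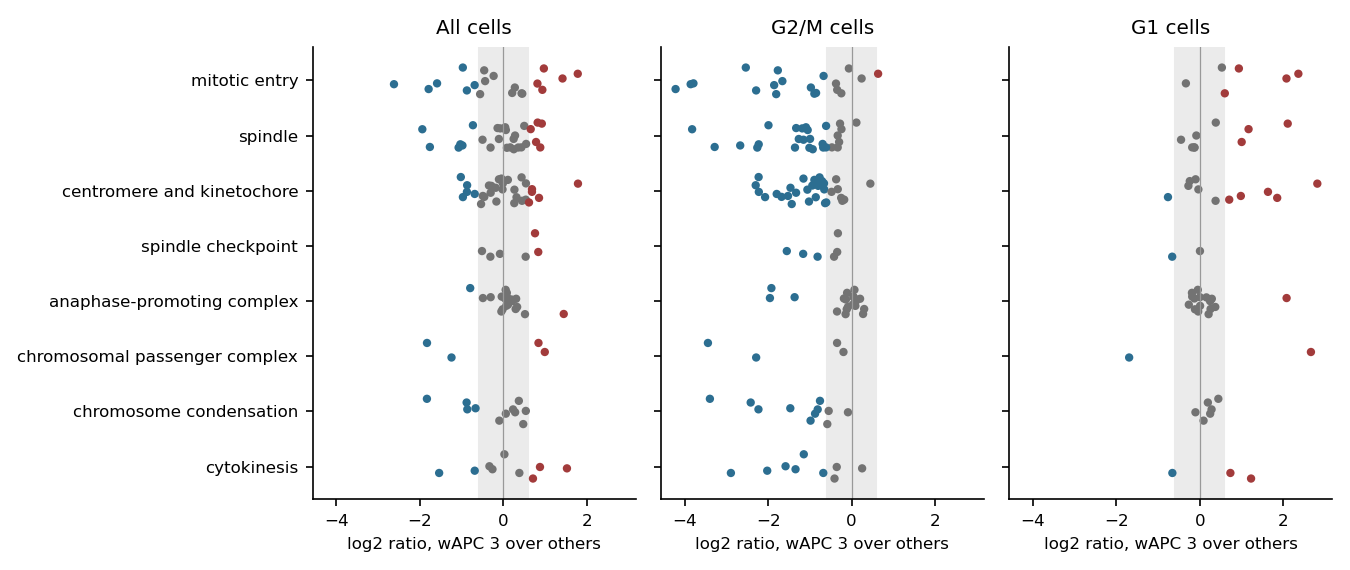
Log2 ratio of wAPC 3 over the other labelled white cells for the genes of the 8 mitotic lists, in all cells, G2/M cells and G1 cells. Over all cells 23 of 126 genes are at least 1.5-fold higher and 26 lower, in G2/M 1 of 128 is higher and 81 lower, and in G1 16 of 56 are higher and 4 lower.

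Over all phases, 0 of 45 DNA replication genes were at least 1.5-fold higher in wAPC 3 and 9 were lower (median log2 ratio −0.39, against 6.62% lower and a median of −0.02 over all genes), among them the origin factors Cdc45 (−1.01), Cdc6 (−0.97) and Mcm10 (−0.76). Within G2/M, 0 of 44 were higher and 36 lower (median −1.14), against 3.01% and 9.59% of all genes. In G1 cells 4 were higher and 3 lower of 29 (median 0.03), against 1.7% and 10.2% of all genes, and Tyms, the thymidylate synthase, had 0.96 there and 0.12 over all phases.

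Histone genes split. Of 67 clustered histone genes, 13 reached 5 CPM, with 3 at least 1.5-fold higher and 7 lower (median log2 ratio −0.80), against 1.07% and 6.62% of all genes. In G1, where 5 reached that level, 4 were higher and 0 lower (0.66), against 1.7% and 10.2%. The higher ones were Hist1h2bc, an H2B gene (199 against 74.2 CPM, 1.42, with 224 in the 15 differentiating wFAPLs), Hist1h1c, a linker histone gene (137 against 51.0, 1.42), and Hist1h4i (1.02). The lower ones included the linker histone genes Hist1h1a (−2.07) and Hist1h1b (−1.63). A kit that primes on poly(A) counts only the polyadenylated transcripts of such genes.

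Hist1h2bc and Hist1h1c were also higher within G2/M and within G1 cells, but not by 1.5-fold within S. Hist1h2bc stood at 231 CPM in G2/M cells of wAPC 3 and 50.0 in the others (2.21), and at 206 against 93.9 in G1 cells (1.13). By cluster, its G2/M level was 43.7 in wAPC 1, 39.3 in wAPC 2, 128 in wAPC 4, 33.1 in wCAPs and 93.9 in wFAPLs. Hist1h1c stood at 180 against 65.9 CPM in G2/M (1.45) and had 1.23 in G1. In S the ratios were 0.42 for Hist1h2bc and −0.41 for Hist1h1c. Hist1h4i had 0.61 in G2/M, 0.66 in G1 and −0.12 in S. At 15000 to 30000 UMIs the G2/M ratios narrowed to 1.09 for Hist1h2bc and 0.87 for Hist1h1c. Hist1h1b went from 20.8 against 275 CPM in G2/M (−3.72) to a log2 ratio of 0.09 in G1.

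Among 13 G1 cyclins and inhibitors of cyclin-dependent kinases, 0 were higher and 4 lower (median log2 ratio −0.01), against 1.07% and 6.62% of all genes. The lower ones were the inhibitors Cdkn2d (−1.37) and Cdkn2c (−1.02) and the pocket proteins Rbl1 (−1.13) and Rb1 (−1.07). Ccnd1, the main D-type cyclin of fibroblasts, had 0.19. Of 16 p53 target genes, beside the same shares of all genes, 0 were higher and 5 lower (−0.31), led by Cdkn1a, the p21 inhibitor, at 61.3 against 117 CPM (−0.93), Trp53inp1 (−0.74) and Gdf15, a stress cytokine (−0.71).

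Among genes of at least 20 CPM over all labelled cells, Cemip had the lowest ratio in wAPC 3. This protein breaks down hyaluronan. It stood at 10.8 CPM (8.39 to 13.6) against 92.7, a log2 ratio of −3.11 (−3.47 to −2.77). By cluster it was 180 in wFAPLs, 130 in wAPC 1, 121 in wAPC 2, 98.5 in differentiating wFAPLs, 28.3 in wCAPs and 11.2 in wAPC 4 (6.74 to 17.5), so wAPC 3 and wAPC 4 did not differ beyond their intervals. In G1 cells it was 4.51 against 96.0 CPM (−4.41) and in G2/M the ratio was −2.32. At 15000 to 30000 UMIs the G1 ratio was −3.82, whereas in G2/M the levels were 15.6 and 15.5 CPM.

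Other genes with low ratios had different roles. Ccn2, a matricellular protein and classic target of YAP, stood at 27.1 against 147 CPM (log2 −2.45), with 32.4 in wAPC 4 (24.4 to 42.2), which overlapped wAPC 3 (23.2 to 31.4), 48.7 in wCAPs and 305 in wAPC 1. In G2/M cells of 15000 to 30000 UMIs its ratio was −0.38. Dmd (dystrophin) had 7.53 against 42.0 CPM (−2.48), Lmod1 (leiomodin) −2.33 and Sorbs2 (a cytoskeletal adaptor) −1.88. Myh11, smooth muscle myosin, had 7.38 against 48.2 CPM (−2.71), but its level in the others was set by differentiating wFAPLs at 2522 and wFAPLs at 102. It was lower in wAPC 2 (3.09) than in wAPC 3, and the intervals of wAPC 4 (2.36) and wCAPs (6.14) overlapped that of wAPC 3. The mural cell markers summed to 44.4 against 114 CPM, with Notch3 at 14.8 in wAPC 3, Myh11 at 48.2 in the others and none at 0. Their part in these low ratios was not tested.

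Among 37 extracellular matrix genes, 0 were higher and 10 lower (median −0.30), against 1.07% and 6.62% of all genes. The lowest after Ccn2 were Thbs1, thrombospondin (236 against 735 CPM, −1.64), Timp3, a protease inhibitor (−1.12), and the basement membrane collagens Col4a1 (−0.95) and Col4a2 (−0.86). Fn1 (−0.40) and Col3a1 (−0.43) lay closer to 0. In G2/M cells the median was −0.09 with 7 lower (9.59% of all genes were), and in G1 it was −0.33 with 9 lower (10.2% of all genes). Of 20 immediate early genes, which respond within minutes to stimulation or cell dissociation, 0 were higher and 9 lower (−0.55), against the same 1.07% and 6.62%. These included Egr3 (−1.29), Egr2 (−1.10) and Btg2 (−1.05), while Egr1 (−0.32) and Jun (−0.33) lay within 1.5-fold. The median of this list was −0.19 in G2/M with 4 lower and −0.47 in G1 with 8 lower, beside the 9.59% and 10.2% of all genes. In the heat shock list 1 of 6 was lower, the chaperone Hspa1b (−1.61).

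Of 9 tested precursor genes, 0 were at least 1.5-fold higher and 0 lower, too few to set against the 1.07% and 6.62% of all genes. In G1, 2 of the 9 were lower, against 10.2% of all genes. Pdgfra and Pdgfrb, the growth factor receptors of mesenchymal precursors, stood at 116 against 115 and at 152 against 153 CPM. Dlk1 (Pref-1), which holds preadipocytes undifferentiated, stood at 593 against 466 CPM (log2 0.35), and the stem cell antigen Ly6a had −0.40. In the adipogenic list, 17 of 26 genes were tested, with 0 higher and 1 lower (−0.03). The lower one was Prdm16, a regulator of beige and brown fat genes (−0.85).

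Pparg, the master regulator of adipogenesis, looked even at 49.5 against 52.97 CPM (−0.10), but its parts differed. In G2/M cells the log2 ratio was 0.60, and in G1 cells it was −1.001 (29.9 against 59.9 CPM). By cluster, wAPC 3 lay below wCAPs at 92.5 and differentiating wFAPLs at 77.6. The rest had 44.8 (wAPC 4), 39.3 (wAPC 1), 20.0 (wAPC 2) and 9.48 (wFAPLs). In G2/M it had 62.1 (53.8 to 71.2), close to wCAPs at 53.7 and wAPC 1 at 53.4. In G1 the level in the others was led by wCAPs at 104, while wAPC 2 (24.0) and wFAPLs (10.2) lay below wAPC 3. Differentiating wFAPLs had 73.9 in G1, wAPC 4 64.8 and wAPC 1 37.2. Fabp4, a fatty acid carrier and Pparg target, stood at 50.3 against 70.6 CPM (−0.49) and had −1.10 in G1. In G1 cells 4 of 18 adipogenic genes were lower and 0 higher, against 10.2% and 1.7% of all genes. Also in G1, Ccl2, a monocyte chemokine, stood at 30.8 against 249 CPM (−3.01). Of 13 tested genes that mark other white clusters, 0 were higher and 6 lower over all phases (−0.54), against 1.07% and 6.62% of all genes, led by Ptchd4 (−1.75), Igfbp2 (−1.44) and Serpinb1a (−1.22).

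Long genes were lower in wAPC 3, a pattern looked for after Dmd and similar genes were seen at the bottom of the list. Across 10410 genes, Spearman's rho between the genomic span of a gene (GENCODE, GRCm38) and its log2 ratio was −0.37, and genes are not independent replicates. The median log2 ratio was 0.07 for genes of up to 5 kb, 0.05 at 10 to 20 kb, −0.08 at 50 to 100 kb, −0.19 at 100 to 200 kb and −0.39 for the 631 genes over 200 kb, of which 30.3% were at least 1.5-fold lower, against 6.62% of all genes. Within phases rho was −0.15 in G2/M and −0.40 in G1. Dmd spans 2257 kb and Cemip 154 kb, against 4.16 kb for Cdca3 and 8.05 kb for Cenpa. Top2a, low in G2/M cells, spans 31.3 kb.

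Malat1, Neat1, Xist and Meg3, noncoding RNAs retained in the nucleus, were picked after their values were seen, and no list of such RNAs was compared. Malat1, a nuclear speckle RNA from a locus of 6.98 kb, stood at 4423 against 8744 CPM (log2 −0.98), and the 6 other clusters ran from 7081 to 13748. The ratio was −0.94 in G2/M and −1.01 in G1. Neat1, the scaffold of paraspeckles, had −0.68, Xist −0.59 and Meg3 −0.43, the last within 1.5-fold. The 83 tested ribosomal protein genes had a median of 0.09 with 0 higher and 0 lower, against 1.07% and 6.62% of all genes. The 13 mitochondrial genes had a median of 0.03. Depth per cell moved with these values, and the share of nuclear or unspliced RNA was not tested. With cells of 15000 to 30000 UMIs only, rho for gene span was −0.32.

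**Figure D4:**
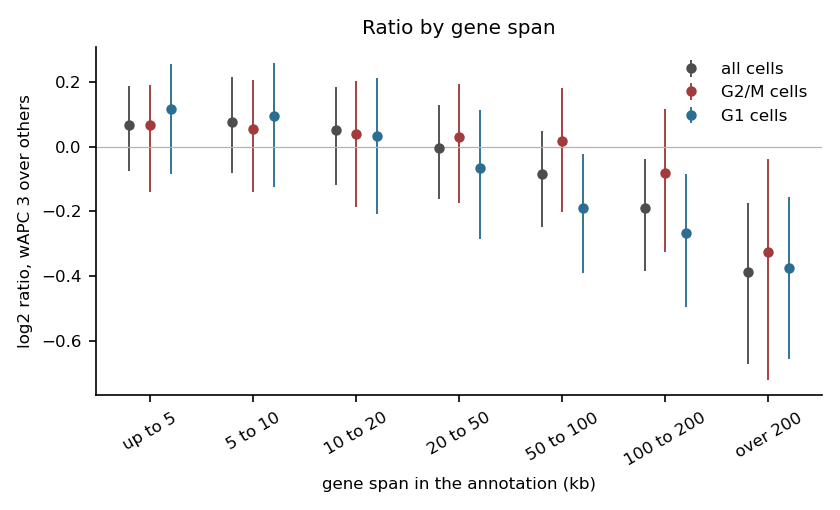
Median log2 ratio of wAPC 3 over the other labelled white cells (bars: lower and upper quartile over genes) by genomic span of the gene, in all cells, G2/M cells and G1 cells. Over all cells the median goes from 0.07 for genes of up to 5 kb to −0.39 for genes over 200 kb.

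Apart from the mural list, markers of other cell types summed to under 10 CPM in wAPC 3. Summed levels were 3.23 CPM for glial genes (others 2.54, with Sox10 and Foxd3 at 0 in wAPC 3) and 6.61 for myeloid genes (11.6, with Tyrobp at 0 and Lyz2 at 0.769 against 4.72). Endothelial genes had 8.76 (others 11.4, with Tek at 5.69 and Cldn5 at 0 in wAPC 3), and myogenic genes had 0.154 (0.079). Mesothelial genes had 0.461 CPM, keratinocyte genes 0 (a count of 0 allows up to 0.461) and genes of mature adipocytes 0.615, with Plin1 at 0.

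With the genes of the S and G2/M scoring lists left out, the 270 cells were each set beside the profiles of the other 6 clusters. Mitotic genes outside those lists stayed in. The nearest was wCAPs for 137 cells (50.7%, 44.6 to 56.9%), wAPC 1 for 101 (37.4%, 31.6 to 43.5%), wAPC 2 for 19 (7.04%), wAPC 4 for 7 (2.59%), wFAPLs for 6 (2.22%) and differentiating wFAPLs for 0. Those clusters make up 39.0, 26.7, 15.0, 3.59, 14.8 and 0.87% of the other labelled cells. How often the other cells fall nearest to each profile was not computed, so these sizes are no baseline. Of 259 cells whose sex could be called from Y-linked genes and Xist, 53 were male (20.5%, 15.7 to 25.9%), against 344 of 1677 others (20.5%, 18.6 to 22.5%).

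The brown culture held a cluster of the same number, bAPC 3, with 171 of 1999 labelled cells. Of these 108 scored as G2/M (63.2%, 55.5 to 70.4%), 42 as G1 and 21 as S, against 17.1% in G2/M among the other brown cells. The median was 23668 UMIs against 27262.5 in the other brown cells, and in G2/M it was 22441.5 against 34993. The low depth of the G2/M cells was thus found in both libraries. Of 10367 brown genes, 1.88% were at least 1.5-fold higher in bAPC 3 and 7.03% lower.

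The profiles of wAPC 3 and bAPC 3, each against its own depot, had 60 higher genes in common, which are 58.3% of 103 in white and 33.3% of 180 in brown. They had 321 lower genes in common (50.4% of 637 and 47.5% of 676), and 0 genes lay 1.5-fold in opposite directions over all phases. Within G2/M, 5 of 10046 genes were higher in white and lower in brown and 4 the reverse, and within G1 these numbers were 16 and 44 of 9982. With at least 20 CPM in both depots they were 0 and 0 in G2/M and 1 and 8 in G1. The brown side of the G1 comparison rested on 42 cells of bAPC 3. Across 10171 genes Pearson's r was 0.63 and Spearman's rho 0.54, with r of 0.71 in G2/M and 0.37 in G1. Of the 23 mitotic genes higher in wAPC 3, 22 were at least 1.5-fold higher in bAPC 3, and of the 26 lower 23 were lower there. Cenpa had a log2 ratio of 1.93 in brown, Ccnb2 1.69, Hist1h2bc 1.21 and Malat1 −1.15. Among brown G2/M cells Top2a had −3.81, Fbxo5 −4.79 and Hist1h2bc 1.93. The correlation with gene span was weaker in brown, with rho of −0.12.

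**Figure D5:**
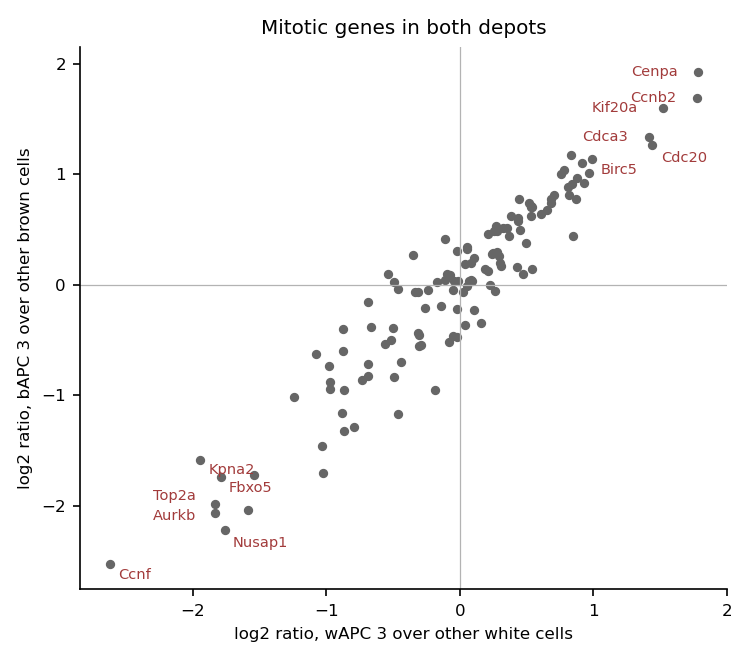
Log2 ratio of each mitotic gene in wAPC 3 over the other white cells (horizontal) and in bAPC 3 over the other brown cells (vertical). Of the 23 genes at least 1.5-fold higher in wAPC 3, 22 are so in bAPC 3, and of the 26 lower ones 23 are.

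Set directly against each other, wAPC 3 and bAPC 3 differed most, among genes of at least 50 CPM in either, in the 10 genes below. Depot and library cannot be told apart in this comparison. Hoxc10, a posterior patterning gene, stood at 100 CPM in wAPC 3 (652 UMIs) and 0 in bAPC 3, at least 146-fold higher against a floor of 3 UMIs, and at 90.3 and 0.037 in the other cells of each depot. Hoxb9 and Hoxc9 had log2 ratios of 2.35 and 2.26, the ephrin receptor Epha3 2.14, and the growth factor Igf2 stood at 297 against 71.0 CPM (2.06). Higher in bAPC 3 were Col8a1, a short-chain collagen (24.1 against 251 CPM, −3.38), Cemip (10.8 against 68.7, −2.67), the BMP antagonist Grem1 (−2.31), Mecom, a zinc finger transcription factor (−2.06), and Cthrc1, a secreted collagen repeat protein (−1.76). The other cells of each depot differed in the same direction in all 10 genes, for example in Col8a1 (40.4 in white against 241 in brown), Cemip (92.7 against 272) and Igf2 (307 against 132). The direction was thus not particular to these clusters. The gap was narrower in the other cells for Col8a1, Cemip, Grem1, Mecom, Hoxb9, Epha3 and Igf2. It was wider there for Hoxc9 and Cthrc1, and for Hoxc10 it cannot be set beside a count of 0 in bAPC 3.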

How the data were processed

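The deposited values are raw UMI counts for each gene in each cell, which the authors made with Cell Ranger 7.0.1 against mm10 per the labels, with 1 library per depot. Cluster names came from the authors' source data, of which 1999 cells per depot were used here. The authors drew the clusters after regressing the cell cycle. A filter with the study's limits (3900 to 7700 genes, 1.7 to 5% mitochondrial UMIs, 6000 to 60000 UMIs) left 4407 white cells. No doublet caller was applied.

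Counts were summed per cluster and phase and given as CPM over 32285 genes. Genes with at least 5 CPM over all cells compared (of that phase, or for the depots in both depots) were kept, and at least 1.5-fold was called higher or lower, as a description. A log2 ratio is of CPM. Intervals (95%) are exact Poisson for levels, Clopper-Pearson for shares and conditional binomial for ratios, and cover counting error only. The limit for a count of 0 is 3 UMIs. Phases came from CellCycleScoring in Seurat 5.3.0 (R 4.3.3) with 43 S and 54 G2/M genes, which include Cenpa, Top2a, Cdca3 and Birc5. Thinning drew 10000 UMIs per cell with a fixed seed. Nearest clusters were found by correlation with cluster means over 10314 genes outside the S and G2/M scoring lists. Span came from the GENCODE annotation for 32235 genes. Python 3.11.15, numpy 2.4.6, scipy 1.17.1, pandas 2.3.3, scikit-learn 1.9.0 and matplotlib 3.10.9 were used. The gene ratios, a list median, the thinning and the nearest-cluster step were tested on simulated data, and the intervals were not.

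The members and gene lists were chosen with earlier results of these data known. Named were Cdca3 and Kif20a, the 25 highest and 10 lowest genes at 20 CPM, up to 4 high and 3 low members of each list, the 10 extreme genes in each direction in G2/M and in G1, precursor and adipogenic genes the study names, and the 5 most different genes between depots in each direction at 50 CPM. Promoters to print, gene span, nuclear RNAs, the pairing of Cenpa with Top2a and the range of 15000 to 30000 UMIs were chosen after values were seen, as were a few genes named to show both sides (Mki67, Plk1, Ccnb1, Cdk1, Col3a1, Col4a1, Col4a2, Fn1 and Cdkn2c). Alternatives changed the CPM minimum, the fold, the depth, the phase limit, the weights of clusters and the labels. Some genes that this rule would name are not reported here.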

Additional observations from a re-analysis of the deposited data

How the results depend on the processing

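No paired analysis was possible because each depot had 1 library, so no fit, block or left-out replicate applied. Of 184 values recomputed under other settings, 135 stayed within the range set for them and 49 did not, and 106 of 120 list medians were among the 135. The sign of a list median differed from that over all cells in 22 of the 120. The log2 ratio of Cdca3 was 1.64 as a mean over single cells, 1.64 after thinning, 1.54 with labels carried over to 4328 cells (580 in wAPC 3), 0.24 in G2/M and 2.08 in G1, and that of Kif20a was 1.72 as a mean over cells, 1.696 with carried labels, 0.25 in G2/M and 2.46 in G1. Labels held out were carried over correctly for 81.8% of cells. The G2/M share was 43.0% at a score of 0.1 and 43.7% without the leading genes, against 55.9% after thinning and 56.6% with carried labels.

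Genes at least 1.5-fold higher numbered 406 at 1 CPM, 50 at 20 CPM, 16 at 2-fold, 213 after thinning, 310 in G2/M, 175 in G1 and 249 at 15000 to 30000 UMIs. After thinning, 90 of the 111 were still higher, and with carried labels 84. Lower genes numbered 1365 at 1 CPM, 315 at 20 CPM, 222 at 2-fold and 1051 in G1. Mitotic genes higher numbered 1 of 128 in G2/M, 36 after thinning, 66 of 115 at 15000 to 30000 UMIs and 39 with carried labels. Of all genes, 3.01%, 2.05%, 2.4% and 1.13% were higher, in that order. Mitotic genes lower numbered 81 of 128 in G2/M, 4 of 56 in G1 and 5 of 115 at 15000 to 30000 UMIs, against 9.59%, 10.2% and 6.85% of all genes.

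List medians moved within G2/M cells to −0.98 (mitotic entry), −1.01 (spindle), −0.87 (centromere and kinetochore), −0.62 (spindle checkpoint), −1.32 (passenger complex), −0.88 (condensation), −1.15 (cytokinesis), −1.14 (DNA replication) and −1.77 (histones). Within G1 cells they moved to 0.77 (mitotic entry), 0.48 (passenger complex) and 0.73 (cytokinesis), and the histone median was 0.66, where 5 genes were tested. Without genes of the scoring lists the passenger complex median was −1.24. The Top2a ratio in G2/M was −3.18 after thinning, −3.04 with carried labels, −3.16 with clusters weighted equally and −2.99 at 15000 to 30000 UMIs. The ratio of median UMIs was 0.837 over all cells and 0.65 in G2/M. Of the genes higher in wAPC 3 at 20 CPM, 81.6% were higher in bAPC 3. The cause was not tested for any of these. With 1 library per depot, only counting error was measured, and a difference between animals, cultures or captures could not be seen. Depth limits the rarer genes most, such as Fbxo5 in G2/M cells of wAPC 3, which rested on 13 UMIs.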

Other observations

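In the 27 S-phase cells of wAPC 3, set against the 287 other S-phase cells, Cdca3 stood at 20.1 against 20.0 CPM (log2 0.01), Cdk1 at 101 against 108 (−0.11), Birc5 at 83.0 against 95.3 (−0.20) and Top2a at 108 against 202 (−0.90). Hist1h2bc had 46.5 against 34.8 CPM (0.42) and Hist1h1c 35.2 against 46.8 (−0.41). Ccn2, the matricellular protein, was low in these cells as well, with 16.3 against 227 CPM (−3.80), as was Cemip, with 21.4 against 113 (−2.41). By cluster in S, Cemip was 33.3 in wCAPs and 33.2 in wAPC 4, whose intervals overlapped that of wAPC 3. It was 241 in wFAPLs, 155 in wAPC 1 and 105 in wAPC 2.

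Outside the cycle genes, those higher in G2/M cells of wAPC 3 than in the other G2/M cells included Snhg4 and Dancr, both host or long noncoding RNAs (51.7 against 27.1 CPM, log2 0.93, and 37.9 against 20.1, 0.92). Ptn, a secreted growth factor abundant in all these cells, stood at 3111 against 2372 CPM over all phases (0.39), and Tril, a membrane protein of innate signalling, at 44.4 against 25.5 (0.80).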
